A study of Mus musculus with 20 samples.

Results

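The genes described here are 35 mouse genes that move zinc or copper across membranes or bind these metals in the cell. They were chosen by symbol, not by a cut on measured values, but with earlier results of these data known. They include 14 importers of the ZIP family (Slc39a) and 10 exporters of the ZnT family (Slc30a). The rest are the metallothioneins Mt1, Mt2 and Mt3 with their regulator Mtf1, and 7 copper genes. All 35 were on the array, out of 18193 genes with a probe set of their own symbol, and they had 64 of its 45101 probe sets. Dim probe sets, those below their array's median on all or all but 1 of the 20 arrays, were not tested, which left 54 probe sets of 34 genes. The 10 others include the only probe set of Slc30a8, a zinc carrier of insulin granules.

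The study looked for mouse mRNAs that are bound by iron regulatory protein 2 (IRP2), a cytoplasmic protein that recognises stem-loops called iron-responsive elements (IREs) in mRNAs of iron metabolism. Total RNA of 5 tissues (duodenum, liver, spleen, bone marrow and brain) was mixed, 50 µg per reaction, with His-tagged recombinant IRP2 from E. coli and a monoclonal antibody against the tag. The recovered RNA was compared with that of a parallel control reaction without IRP2, and about 120 ng of it was amplified for hybridisation to the Affymetrix Mouse Genome 430 2.0 array. Each tissue and reaction had 2 arrays, numbered as replicates, which gives 10 groups.

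All groups came from C57BL6/J mice, females and males mixed, with no genetic alteration named. RNA of duodenum, liver and spleen was pooled from 4 mice per tissue that had eaten iron-poor food (below 10 mg per kg) for 21 days after weaning. RNA of bone marrow and brain was pooled from 6 mice per tissue, aged 8 to 10 weeks, fed a diet of normal iron content. Diet and age can therefore not be told apart from tissue between these sets. The sources used here do not say whether both replicates of a tissue drew on 1 pool of RNA. The spread behind the p-values is that between these arrays and may be technical. The control reaction holds what was recovered without IRP2, not the total RNA of the tissue.

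ZIP proteins bring zinc into the cytosol from outside the cell or from organelles, and ZnT proteins carry it the other way. Metallothioneins are small cysteine-rich proteins that bind zinc and copper, and Mtf1 is the zinc-sensing transcription factor that turns on their genes through metal response elements. Copper enters through Slc31a1 (CTR1), is handed on by chaperones such as Atox1 and Ccs, and is pumped out of the cytosol by the ATPases Atp7a and Atp7b. None of these genes has a textbook IRE, whereas IREs control the mRNAs of the transferrin receptor Tfrc, the iron importer Slc11a2, the iron exporter Slc40a1 and the ferritin chain Fth1.

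Metallothionein promoters are shown because Mt2 and Mt3 both had their highest control level in brain, as described further on. The windows are the 250 bases before the annotated start in RefSeq (GRCm38.p6), 5′ to 3′ on the plus strand. Capitals mark each match, on either strand, to TGCNCNC, a loose spelling of the core of the metal response element.
Mt2, chr8:94172368-94172617: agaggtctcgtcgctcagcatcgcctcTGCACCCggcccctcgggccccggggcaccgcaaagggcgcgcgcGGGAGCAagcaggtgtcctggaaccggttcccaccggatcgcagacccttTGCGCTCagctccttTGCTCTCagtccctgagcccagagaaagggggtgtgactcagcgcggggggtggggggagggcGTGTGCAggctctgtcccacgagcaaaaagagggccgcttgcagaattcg
Mt3, chr8:94152357-94152606: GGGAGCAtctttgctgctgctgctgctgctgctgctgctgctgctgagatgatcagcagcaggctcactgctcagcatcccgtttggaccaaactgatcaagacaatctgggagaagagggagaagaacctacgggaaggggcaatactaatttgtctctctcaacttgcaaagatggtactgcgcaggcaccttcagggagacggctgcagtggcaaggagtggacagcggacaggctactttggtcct
The Mt2 window held 5 matches, beginning 223, 178, 128, 113 and 50 bases before the start, and the Mt3 window held 1. The Mt1 window also held 1, but it lies partly inside the gene record of the RefSeq table. It is not printed, and its count may not be that of the Mt1 promoter. Of all 32851 promoter windows 44.4% held at least 1 match and 0.344% at least 5. Of the members, 30 genes had 36 windows, and 23 windows (63.9%) held a match. The window of Slc30a4 held 4, and single windows of Atp7a, Slc30a10, Slc30a2 and Slc39a11 held 3. At least 3 matches were held by 6 of the 36 member windows, that of Mt2 included, beside 4.65% of all windows. A match describes letters only and says nothing of Mtf1 binding.

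The tissue labels were checked against marker genes, with single genes read in the control reactions and summed levels on the arrays of both reactions. All 5 duodenal epithelium and 5 liver markers were highest in their own tissue, as were all 5 bone marrow myeloid markers and 3 of 4 lymphocyte markers in spleen (not Cd3e). In brain Snap25 and Syt1 were highest, but Gfap and Mbp were not. Duodenal epithelium markers also summed to 7.08 to 7.51 above the array median in liver on the log2 scale, against 8.66 to 9.25 in duodenum. Liver markers summed to 6.92 to 7.79 in duodenum and 8.06 to 8.35 in brain, against 10.48 to 10.75 in liver. Few genes made up these sums. In the brain controls Ttr stood at 8.06 and the other liver markers at most at 2.14. In the duodenum controls Apoa1 stood at 7.16, Ttr at 3.47 and the others at most at 2.54. In the liver controls Fabp2 stood at 6.54, Apoa4 at 6.24 and the other duodenal markers at most at 0.30. The summed level of 4 pancreas acinar markers (Cpa1, Cela2a, Ctrb1, Cel) stood 8.26 to 8.69 above the array median on the log2 scale in duodenum, 4.53 to 5.30 in spleen and 1.33 to 3.15 in the other tissues. Paneth and goblet cell markers summed to 8.74 to 9.34 in duodenum, 8.12 to 8.38 in spleen and 6.27 to 8.03 in bone marrow, where at most 2 of the 5 exceeded the array median, and to at most 6.18 elsewhere. Erythroid markers summed to 6.14 to 6.48 in spleen and 5.68 to 6.68 in bone marrow. Of the 3 on the array, Slc4a1 and Epor exceeded the array median there. Hba-a1 did not, at -1.88 and -1.67 in the controls. Muscle markers summed to at most 3.52 on any array. Array medians lay between 5.65 and 5.71 for duodenum, liver and brain replicate 1 and between 5.39 and 5.55 for spleen, bone marrow and brain replicate 2. Bone marrow control replicate 1 stood apart: the log2 ratios of its pair had an SD of 0.568 over all tested probe sets, against 0.214 to 0.312 for the other pairs.

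With IRP2, no zinc or copper gene was recovered above or below the control reaction past the test's threshold. Averaged over the 5 tissues, the log2 ratios of the 34 genes, each on its brightest probe set, ran from -0.24 for Commd1 to 0.12 for Slc39a8, with a median of -0.06. The median over all genes' brightest probe sets was -0.03. The ratio was below 0 for 24 of the 34 genes (70.6%), against 62.0% of all genes. The 95% confidence interval of all 54 tested probe sets lay inside a 2-fold change either way on the mean over tissues, and that of 47 lay inside ±0.5 on the log2 scale. The outermost bounds were 0.68 and -0.59. Of the 54, 30 reached the array median on all 20 arrays and 4 did so in 1 tissue only. The means therefore include tissues where a probe set was dim, and a small ratio there need not mean no recovery.

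By limma with Benjamini-Hochberg adjustment over 30153 probe sets, 0 of 54 were called on the mean over tissues (an adjusted p under 0.05), and 0 had an unadjusted p under 0.05 in the fit without a replicate block. Of all tested probe sets 0.365% were called higher and 0.00663% lower (1.93% and 0.939% unadjusted), so a count of 0 among 54 is near this background and is no result about the members by itself. The intervals are what bound the ratios, as measured and with dim tissues included. A fit with replicate number as a block called 0 as well, with a smallest adjusted p of 0.214 (limma, Commd1), against a background of 1.07% higher and 0.146% lower. At an unadjusted p under 0.05 it gave 2 higher and 5 lower of the 54, beside 6.16% and 5.57% of all tested probe sets. With the block all 54 intervals lay inside ±0.5.

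**Figure D1:**
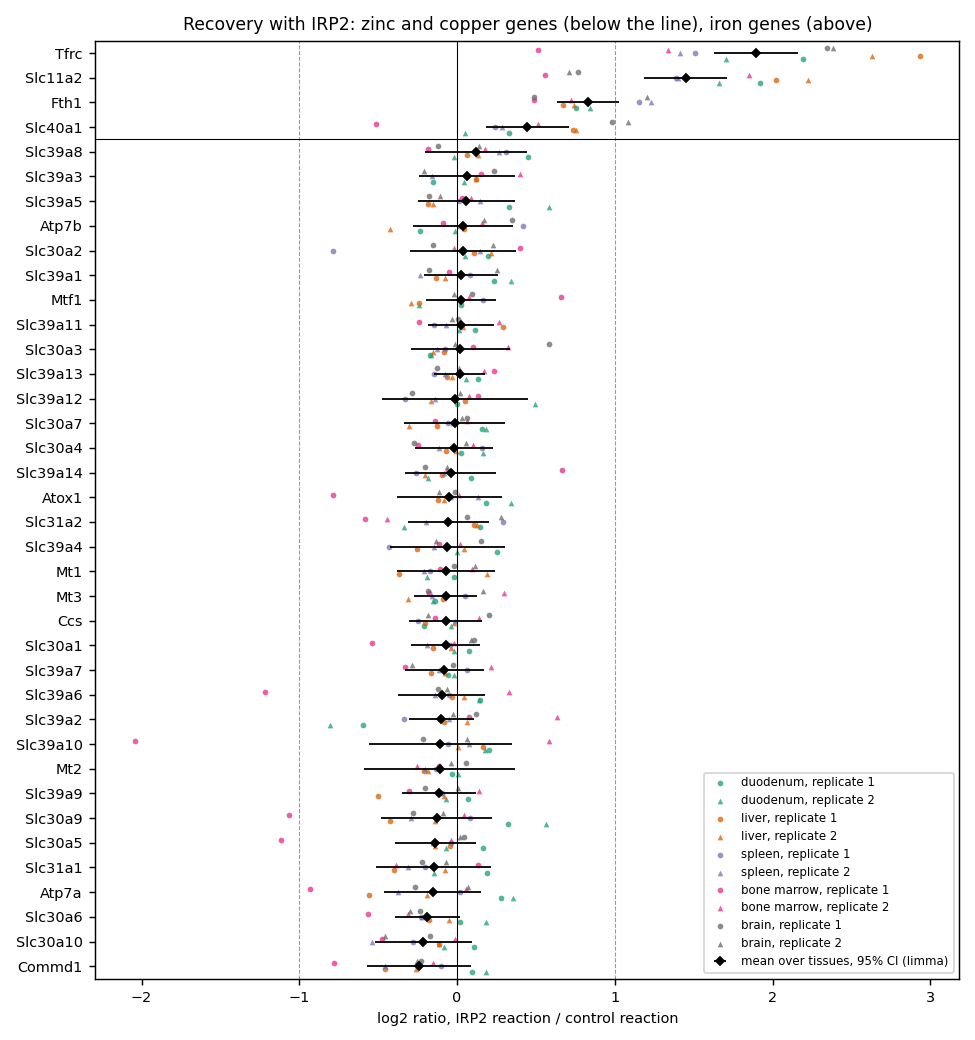
Log2 ratio of IRP2 to control for each replicate pair (coloured points, 10 per gene) and the mean over tissues with its 95% confidence interval from limma (black diamonds and bars), on the brightest probe set of 34 zinc and copper genes below the line and 4 iron genes above it; dashed lines mark a 2-fold change. The means of the zinc and copper genes lie between -0.24 and 0.12, and their widest points come from bone marrow replicate 1, down to -2.04 for Slc39a10.

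The 4 IRE mRNAs of iron handling were measured on the same arrays. On the brightest probe sets, the pair ratios of Tfrc ran from 0.51 to 2.93 with a median of 1.95, and those of Slc11a2 from 0.56 to 2.22 with a median of 1.53. Fth1 ran from 0.49 to 1.23 (median 0.75) and Slc40a1 from -0.51 to 1.08 (median 0.42). All pairs were thus above 0 except 1 pair of Slc40a1, that of bone marrow replicate 1. On the mean over tissues, 7 of their 11 probe sets were called higher, with a median of 1.14 over the 4 brightest. The brightest probe set of Slc40a1 was not among the 7 (adjusted p = 0.356 by limma, or 0.0303 with the block), but its other one was, at 1.61 ± 0.11.

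A further 11 iron genes without an IRE (Tfr2, Slc11a1, Slc25a37, Slc25a28, Slc48a1, Flvcr1, Cybrd1, Steap3, Heph, Cp and Hamp) were measured too. None of their 21 tested probe sets was called by limma with or without the block, and their brightest ratios ran from -0.15 to 0.16 with a median of -0.06. That median equals the median of the zinc and copper genes to 2 decimals. Ftl1 and Trf were not analysed here. A list of other zinc and copper genes gave 0 calls among 47 tested probe sets, and a median of -0.09. It holds copper enzymes and chaperones such as Sod1 and Cox17 and zinc enzymes such as the carbonic anhydrases, and 1 of its probe sets was lower at an unadjusted p under 0.05. No difference between lists was tested.

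**Figure D2:**
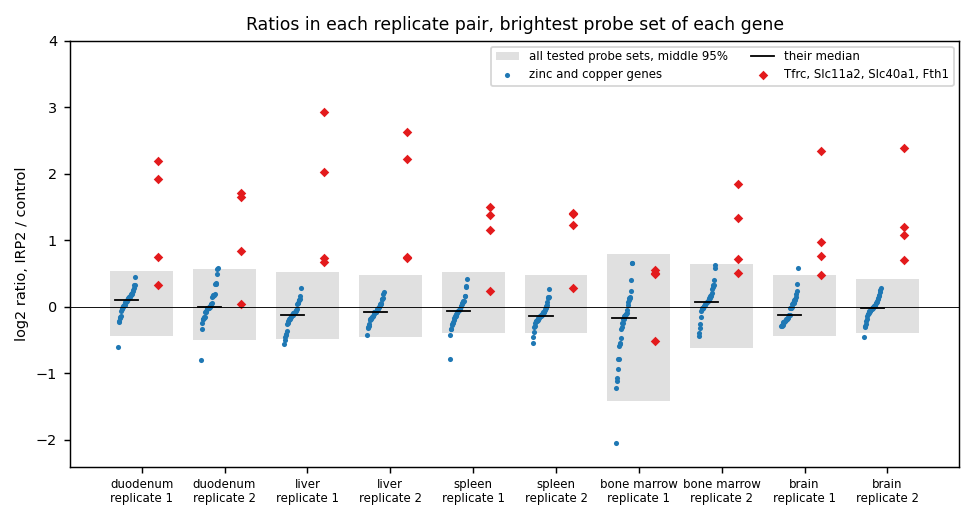
Log2 ratio of IRP2 to control in each of the 10 replicate pairs for the brightest probe set of 34 zinc and copper genes (blue points, with their median as a bar) and of Tfrc, Slc11a2, Slc40a1 and Fth1 (red diamonds); grey boxes span the middle 95% of all tested probe sets. The medians of the zinc and copper genes lie between -0.16 and 0.10, and the grey box is widest in bone marrow replicate 1.

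The 14 ZIP importers had ratios on the mean over tissues from -0.12 to 0.12 with a median of -0.03, and 0 of their 20 tested probe sets were called. In what follows, values joined by "and" are replicates 1 and 2, and tissues come in the order duodenum, liver, spleen, bone marrow, brain. For Slc39a8 (ZIP8), a carrier of zinc, manganese and iron, the control arrays read 6.77 and 6.95, 8.95 and 9.28, 6.60 and 6.67, 6.59 and 5.78, and 6.03 and 5.05, and the IRP2 arrays 7.22 and 6.92, 9.01 and 9.40, 6.91 and 6.94, 6.40 and 5.96, and 5.91 and 5.19. Both IRP2 arrays were above both controls in spleen only, and the ratio over all tissues was 0.12 ± 0.15 (SE, n = 10 arrays per reaction), with an interval of -0.20 to 0.44. For Slc39a3 (ZIP3), a zinc importer of the cell surface, the control arrays read 6.89 and 6.83, 6.58 and 6.61, 6.75 and 6.93, 6.52 and 6.48, and 7.05 and 8.30, and the IRP2 arrays 6.74 and 6.87, 6.70 and 6.73, 6.81 and 6.77, 6.67 and 6.88, and 7.28 and 8.09. Its arrays did not overlap in liver and bone marrow, where both IRP2 arrays were higher, and the mean ratio was 0.06 ± 0.14. For Slc39a5 (ZIP5), found on the basolateral side of the gut epithelium, the control arrays read 7.79 and 8.43, 6.41 and 6.47, 5.59 and 5.16, 5.87 and 5.86, and 5.91 and 5.21, and the IRP2 arrays 8.12 and 9.01, 6.23 and 6.31, 5.60 and 5.30, 5.90 and 5.95, and 5.73 and 5.10. The IRP2 arrays were higher than the control of their own pair in duodenum, spleen and bone marrow, with separate arrays in bone marrow. They were lower in liver and brain, with separate arrays in liver, and the mean was 0.06 ± 0.14.

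Slc39a14 (ZIP14) and Slc39a8 are the ZIP members known to carry iron as well as zinc. The brightest Slc39a14 probe set had -0.04 ± 0.14, and its other 3 tested probe sets lay between -0.03 and 0.10. For Slc39a4 (ZIP4), the importer of dietary zinc, the mean ratio was -0.06, for Slc39a1 0.03 and for Slc39a2 -0.10. In duodenum Slc39a2 was the 1 member below an unadjusted p of 0.05 in the fit without the block, against 4 probe sets with it: its controls read 5.73 and 5.91 and its IRP2 arrays 5.14 and 5.10, a ratio of -0.70 (adjusted p = 1.0 by limma, or 0.168 with the block). The IRP2 arrays of both pairs were lower there, while bone marrow gave 0.36. The organelle carriers Slc39a7, Slc39a9, Slc39a11 and Slc39a13 had -0.08, -0.12, 0.02 and 0.02, and Slc39a12 had -0.01. Slc39a6 and Slc39a10, a closely related pair of importers, had -0.10 and -0.11. Both had their lowest pair ratio in bone marrow replicate 1, where Slc39a6 read 8.59 (control) against 7.37 (IRP2) and Slc39a10 7.19 against 5.14. The dimmer probe set of Slc39a6 had the highest ratio of any member probe set, 0.18 (interval -0.01 to 0.37).

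The 9 tested ZnT exporters ran from -0.21 to 0.04 with a median of -0.07, and 0 of their 12 tested probe sets were called. Slc30a10 exports manganese and zinc, and its control arrays read 11.06 and 11.64, 8.30 and 8.82, 3.85 and 4.05, 4.74 and 4.94, and 6.45 and 5.97, and the IRP2 arrays 11.16 and 11.56, 8.18 and 8.70, 3.57 and 3.51, 4.27 and 4.92, and 6.28 and 5.51. The IRP2 array was the lower one in 9 of 10 pairs. Both IRP2 arrays lay below both controls in spleen only, and the mean was -0.21 ± 0.14 (interval -0.52 to 0.09). On this probe set no array of spleen or bone marrow reached the array median. The dimmer probe set of Slc30a10 had -0.05. For Slc30a6, a zinc carrier of the Golgi, the control arrays read 6.86 and 7.18, 6.57 and 6.49, 6.87 and 6.70, 6.04 and 5.70, and 6.18 and 6.43, and the IRP2 arrays 6.88 and 7.36, 6.39 and 6.44, 6.65 and 6.48, 5.47 and 5.39, and 5.95 and 6.13. It was the only member probe set whose IRP2 arrays both lay below both controls in 4 tissues, all but duodenum, which 0.355% of all tested probe sets do. Its mean was -0.19 ± 0.10 (adjusted p = 1.0 by limma, or 0.249 with the block), with an interval of -0.39 to 0.02.

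Slc30a2 loads zinc into vesicles of secretory cells, and its control arrays read 7.44 and 7.87, 4.05 and 4.28, 4.69 and 4.10, 3.74 and 4.77, and 3.82 and 3.08, and the IRP2 arrays 7.64 and 7.91, 4.16 and 4.50, 3.90 and 4.24, 4.14 and 4.75, and 3.67 and 3.31. The mean of 0.04 ± 0.16 combines pair ratios from -0.79 to 0.40, and no tissue had separate arrays. Slc30a1, the zinc exporter of the cell surface, had -0.07. Slc30a5 and Slc30a7, which carry zinc into the secretory pathway, had -0.14 and -0.02, Slc30a3, the carrier of synaptic vesicles, had 0.02, and Slc30a4 and Slc30a9 had -0.02 and -0.13. The pair ratios of the dim, untested Slc30a8 probe set ran from -0.51 to 0.50.

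For the metallothioneins and Mtf1 the median ratio was -0.07, and 0 of 7 tested probe sets were called. For Mt1 the control arrays read 11.43 and 11.36, 11.05 and 10.08, 9.96 and 9.59, 9.24 and 8.68, and 11.37 and 11.80, and the IRP2 arrays 11.41 and 11.17, 10.68 and 10.26, 9.79 and 9.38, 9.13 and 8.78, and 11.35 and 11.92. For Mt2 the control arrays read 10.54 and 9.95, 10.36 and 8.80, 9.92 and 9.66, 9.11 and 8.55, and 11.04 and 11.59, and the IRP2 arrays 10.51 and 9.95, 10.15 and 8.62, 9.79 and 9.45, 8.996 and 8.30, and 11.10 and 11.56. For Mt2 in liver the differences between replicates exceeded those between reactions. Its controls there differed by over 1 on the log2 scale while each IRP2 array lay close to its own control. The mean ratios were -0.07 ± 0.15 for Mt1, -0.11 ± 0.22 for Mt2, -0.07 ± 0.09 for the brain metallothionein Mt3 and 0.02 for the brightest probe set of Mtf1. The Mt1 probe set carries a suffix that marks probes shared with other transcripts, so a part of its signal may be of another metallothionein.

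Among the 7 copper genes the median was also -0.07, from -0.24 to 0.04, and 0 of 15 tested probe sets were called. For Commd1, a scaffold protein that takes part in copper export and protein sorting, the control arrays read 8.64 and 9.33, 9.21 and 9.28, 7.99 and 8.29, 8.31 and 7.30, and 7.97 and 7.52, and the IRP2 arrays 8.74 and 9.52, 8.75 and 9.02, 7.89 and 7.84, 7.53 and 7.15, and 7.74 and 7.27. The IRP2 array was lower in 8 of 10 pairs, in all but those of duodenum, and both lay below both controls in liver and spleen. The mean was -0.24 ± 0.15, with an interval of -0.57 to 0.09, or -0.41 to -0.08 with the block. Its other probe set had -0.12.

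Atp7a pumps copper out of gut cells, and its control arrays read 8.65 and 9.04, 7.18 and 7.38, 8.41 and 8.62, 8.49 and 7.33, and 7.21 and 6.76, and the IRP2 arrays 8.93 and 9.39, 6.63 and 7.19, 8.43 and 8.25, 7.56 and 7.39, and 6.94 and 6.83. The mean of -0.15 ± 0.14 spans positive ratios in duodenum and a lowest pair ratio of -0.93 in bone marrow replicate 1, and its other probe set had 0.15. For the copper importer Slc31a1 the control arrays read 8.35 and 9.10, 8.92 and 9.24, 6.71 and 6.65, 6.44 and 5.85, and 5.83 and 6.39, and the IRP2 arrays 8.53 and 8.95, 8.52 and 9.16, 6.51 and 6.34, 6.58 and 5.47, and 5.61 and 6.32. Its mean was -0.15 ± 0.17, and only spleen had separate arrays. For Atp7b, the copper pump of the liver, the control arrays read 8.11 and 7.88, 7.95 and 7.96, 6.54 and 7.04, 7.70 and 7.23, and 7.85 and 7.00, and the IRP2 arrays 7.87 and 7.86, 7.99 and 7.53, 6.96 and 7.05, 7.61 and 7.39, and 8.20 and 7.17. Its mean was 0.04 ± 0.15, and its other probe sets had -0.19 and -0.02. The endosomal Slc31a2 had -0.06, Atox1, which delivers copper to the pumps, -0.05, and Ccs, which loads copper into Sod1, -0.07.

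Within single tissues limma called 0 of the 54 probe sets in each of the 5, with and without the block. Over all tested probe sets, 0.073% were called higher and 0% lower for duodenum, 0.0332% and 0% for liver, 0.063% and 0% for spleen, 0.00995% and 0% for bone marrow, and 0.0597% and 0.00332% for brain, so counts of 0 are again near background. The block raised these shares to 0.282% and 0.0133% for duodenum, 0.206% and 0.0133% for liver, 0.292% and 0.0133% for spleen, 0.378% and 0.348% for bone marrow, and 0.139% and 0.00332% for brain. At an unadjusted p under 0.05, the fit without the block gave 1 lower in duodenum (Slc39a2), and 1 higher and 1 lower in bone marrow (Slc31a2 on its dimmer probe set at 0.66, Slc30a5 at -0.58), and 0 elsewhere. The unadjusted shares of all probe sets were 1.05% and 0.212% for duodenum, 0.793% and 0.322% for liver, 0.869% and 0.0862% for spleen, 1.73% and 4.77% for bone marrow, and 0.551% and 0.156% for brain. The block gave more at that threshold: 4 higher and 10 lower in bone marrow, 2 and 2 in duodenum, 1 lower in spleen, and 0 in liver and brain. Beside them stand 8.37% and 13.4% of all tested probe sets for bone marrow, 4.34% and 2.02% for duodenum, 3.15% and 0.852% for spleen, 2.9% and 2.5% for liver, and 1.74% and 1.13% for brain. Ratios in a single tissue are less tightly bounded: a 2-fold change either way lay outside the interval for 42 probe sets in duodenum and spleen each, 44 in liver, 36 in bone marrow and 46 in brain. The median ratio of the 34 genes was 0.06, -0.11, -0.10, -0.04 and -0.01 in the 5 tissues in their usual order, against 0.04, -0.04, -0.02, -0.04 and -0.02 for all tested probe sets.

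Whether a ratio differed between tissues was tested by a moderated F test in the same limma fit. It called 0 of 54 (0.00332% of all tested probe sets) and 0 with the block (0.0398%). At an unadjusted p under 0.05 it gave 1, Slc39a2, against 0.604% of all tested probe sets, and with the block 4, against 6.37%. In bone marrow the spread was larger in pair 1, with an SD of 0.568 over all tested probe sets against 0.312 in pair 2. The Slc39a10 controls there read 7.19 and 5.03 and the IRP2 arrays 5.14 and 5.61, so that the pair ratios were -2.04 and 0.58. The ratio was -0.73 and not called, and without bone marrow control replicate 2 it was -1.81 (adjusted p = 0.0175 by limma), the only member called in a single tissue under any alternative.

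Levels in the control reactions differed widely between tissues. They are given as the log2 value minus the median of its array, and each contrast sets the mean of a tissue's 2 control arrays against the mean of the other 4 tissues. Fewer cells of a type and less RNA per cell cannot be told apart in such bulk RNA. Levels are compared only between tissues within a probe set. By limma, 19 member probe sets were called higher in duodenum and 6 lower, beside 13.8% and 23.7% of all tested probe sets, 17 higher and 9 lower in liver (16.7% and 27.1%), and 12 and 11 in spleen (35.4% and 21.7%). In bone marrow 2 were higher and 29 lower (16.4% and 29.8%), and in brain 10 and 17 (22.2% both ways).

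As shares of the 54, 35.2% were higher in duodenum and 53.7% lower in bone marrow. In all, 47 were called in at least 1 tissue, against 86.4% of all tested probe sets, so that being called somewhere is common. Because 4 member probe sets passed the filter through 1 tissue alone (Slc39a12 in brain, Slc30a2 and 1 of Slc39a14 in duodenum, 1 of Atp7b in bone marrow), these counts are a description. Diet, age, tissue and the range of array medians cannot be told apart in them. Shares of all tested probe sets are not given for the alternatives that follow, so a change in the members cannot be told from a general one. Without subtraction of the array medians the duodenum split was 28 higher and 4 lower and the spleen split 8 and 20. Quantile normalization gave 6 and 17 in spleen. With 1 control array left out, the duodenum count was 12 higher without control replicate 2 and 3 lower without control replicate 1. Liver had 9 higher and 3 lower without control replicate 1, and 7 and 4 without control replicate 2. In spleen 7 were higher without either control array, in bone marrow 9 were lower and 1 higher without control replicate 2, and without brain control replicate 2 the counts higher were 6 in brain and 4 in bone marrow.

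**Figure D3:**
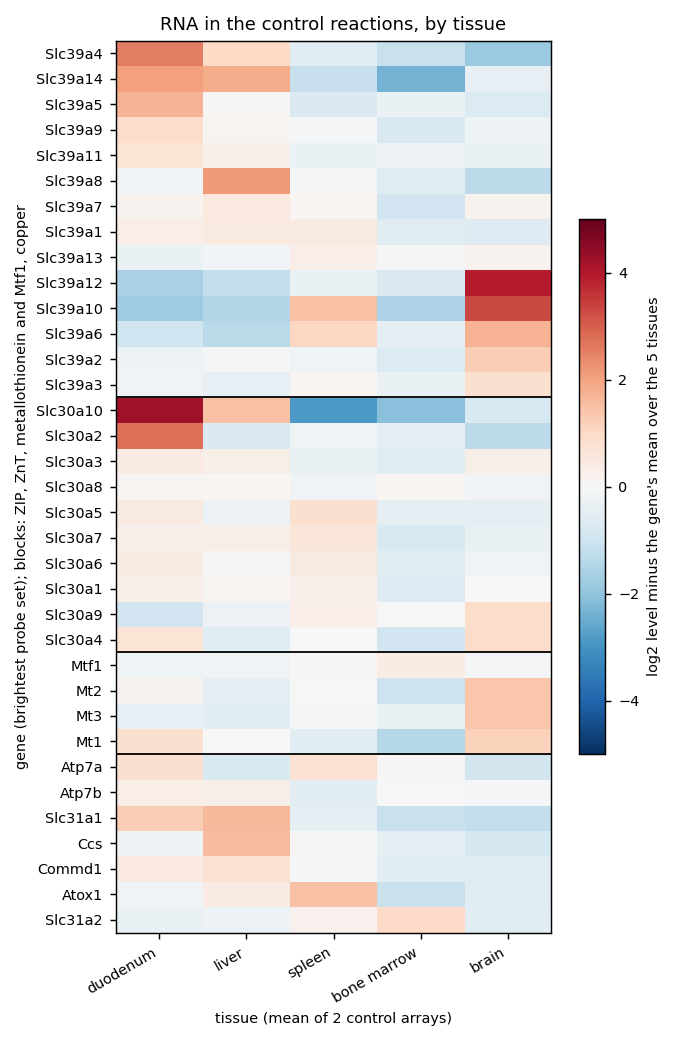
Mean log2 level of the 2 control arrays of each tissue, relative to the array medians and to the gene's own mean over the 5 tissues (colour scale), for the brightest probe set of all 35 genes in blocks of ZIP, ZnT, metallothioneins with Mtf1, and copper genes. The deepest red cells are Slc30a10 in duodenum and Slc39a12 and Slc39a10 in brain, and the bone marrow column is mostly blue; Slc30a8 was too dim to be tested.

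Of the ZIP importers, 5 genes were called higher in duodenum, on 8 of 20 tested probe sets (40%, beside 13.8% of all tested probe sets). Slc39a4 stood at 2.48 and 3.67, 1.43 and 1.57, 0.00 and -0.07, -0.49 and -0.71, and -1.93 and -0.77. Both duodenum arrays lay above all others, by 3.19 ± 0.34 in the contrast (SE, adjusted p = 2.69e-06 by limma). Slc39a5 was higher there by 2.14 ± 0.24, and the smaller rises were of Slc39a9 (1.17) and Slc39a11 (0.85). Slc39a4 was called higher in liver as well, by 1.23 ± 0.34 (adjusted p = 0.00862 by limma). Slc39a14 was also called in both tissues, and its levels were 4.78 and 5.38, 4.75 and 4.98, 1.99 and 1.70, 0.70 and 0.59, and 2.21 and 3.00. The arrays of duodenum and liver overlapped and stood above the rest, with contrasts of 2.59 ± 0.27 and 2.32 ± 0.27. Among arrays of like median alone (duodenum, liver and brain replicate 1) they were 1.54 and 1.22. Its other 3 tested probe sets were called higher in both tissues too, 1 of them having passed the filter through duodenum alone, and among arrays of like median they had 0.26 to 1.09 in duodenum and -0.10 to 0.43 in liver. Pancreas acinar and Paneth and goblet cell markers were also highest in duodenum, apart from Lyz1, and their part in these values was not tested.

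In liver Slc39a8 had the largest contrast of the ZIP genes. Its levels were 1.06 and 1.29, 3.27 and 3.61, 1.20 and 1.28, 1.12 and 0.29, and 0.37 and -0.36. The liver arrays lay above all others, by 2.66 ± 0.24 (adjusted p = 3.31e-07 by limma), a fold of 6.32, and brain was lower by 1.63.

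In brain 5 ZIP genes were called higher, on 5 of 20 tested probe sets (25%), near the 22.2% of all tested probe sets. Slc39a12, known from brain and retina, stood at -2.51 and -2.95, -2.28 and -2.33, -1.40 and -1.51, -1.87 and -1.77, and 1.93 and 3.76. It reached the array median, and so passed the filter, through brain alone. The contrast of 4.92 ± 0.43 is therefore a description, against tissues near the low end of the array where no fold can be given. The 2 brain arrays differ by over 1.5, but both exceed every other array. Slc39a10 stood at 0.21 and 0.59, 0.51 and 0.93, 3.73 and 3.56, 1.72 and -0.46, and 5.12 and 5.87. Brain was highest by 4.15 ± 0.41, spleen came next, and bone marrow control replicate 1 lay far above its replicate. Slc39a6 had the same order of brain and spleen above the rest, at 2.15 and 2.10, 1.76 and 1.80, 4.15 and 4.18, 3.11 and 2.20, and 5.01 and 4.72. The brain contrast was 2.18 ± 0.22, and its dimmer probe set was called in no tissue.

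In spleen the contrasts of Slc39a10 and Slc39a6 were 1.83 ± 0.41 and 1.31 ± 0.22 (adjusted p = 0.00159 and 0.000148 by limma). Among arrays of like median alone, which sets spleen against bone marrow and brain replicate 2, they were 0.39 and 0.48. That comparison leaves out duodenum and liver and keeps brain, the highest tissue for both genes. The changed comparator and the range of array medians cannot be told apart in it. Slc39a2 (1.52) and Slc39a3 (1.00) were the other ZIP genes called higher in brain. For Slc39a3 the brain arrays read 1.39 and 2.89, the first of them below the 1.54 of a spleen array, and on its other probe set brain was the lowest tissue, at -0.33 and not called. Slc39a1, Slc39a7 and Slc39a13 differed little: their called contrasts were at most 1.19 in size, the largest being Slc39a7 in bone marrow at -1.19.

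Slc30a10 had the largest contrast of any member. Its control levels were 5.35 and 5.99, 2.62 and 3.15, -1.54 and -1.34, -0.73 and -0.55, and 0.80 and 0.55. Duodenum lay above every other array, liver came second and spleen lowest, and the duodenum contrast was 5.30 ± 0.24 (adjusted p = 4.12e-10 by limma). Spleen and bone marrow lay below the array median, so no fold is given, and among arrays of like median the contrast was 3.83. The dimmer probe set gave the same order of duodenum and liver, with 3.82 and 1.18. Slc30a2 stood at 1.73 and 2.21, -1.62 and -1.39, -0.71 and -1.29, -1.73 and -0.72, and -1.83 and -2.33. It passed the filter through duodenum alone, so that the contrast of 3.42 ± 0.27 is a description, and the other tissues lay below the array median. Acinar marker Cela2a stood 7.70 above the array median in duodenum and 3.47 in spleen, where Slc30a2 lay below the median, and a part of pancreas in the duodenum samples was not tested.

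The other ZnT genes varied less between tissues. Slc30a4 was higher in brain (1.12) and duodenum (0.83), and Slc30a9 was higher in brain (1.15) and lower in duodenum (-1.18). Slc30a1 was higher in duodenum on its dimmer probe set (1.16), with 0.33 on the brighter one. Slc30a5, Slc30a6 and Slc30a7 were called higher in spleen, by 0.99, 0.56 and 0.75 on their brightest probe sets. Slc30a3 was called in bone marrow alone, at -0.77. In bone marrow 9 of the 12 tested ZnT probe sets were called lower and 0 higher, beside 29.8% and 16.4% of all tested probe sets. That count was not redone with arrays left out, under which the members called lower there went from 29 to 9.

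On their brightest probe sets the metallothionein mRNAs had their highest mean in brain. Mt1 stood at 5.72 and 5.70, 5.37 and 4.41, 4.57 and 4.20, 3.77 and 3.19, and 5.71 and 6.39. Brain and duodenum overlapped at the top, and brain was higher by 1.43 ± 0.28 in the contrast (adjusted p = 0.000542 by limma). The other tested Mt1 probe set, far dimmer, went another way: it stood at 0.48 and -0.08 in duodenum and -0.45 and -0.34 in brain, was called in no tissue, and had a brain contrast of -0.33. Mt2 stood at 4.83 and 4.29, 4.68 and 3.14, 4.53 and 4.27, 3.64 and 3.06, and 5.38 and 6.18. Its brain arrays exceeded all others, the contrast was 1.72 ± 0.41, and without brain control replicate 2 it was 1.32 and not called (adjusted p = 0.0658 by limma). Mt3, the form known from neurons and astrocytes, stood at 0.31 and 0.27, 0.18 and 0.17, 0.53 and 0.69, 0.52 and 0.28, and 2.23 and 1.94. Only brain left the range of 0.17 to 0.69, by 1.72 ± 0.15, a fold of 3.29 (adjusted p = 1.27e-07 by limma). The brightest Mt1 probe set and that of Mt2 had bone marrow contrasts of -1.78 and -1.31, both called, and the dimmer one of Mt1 had 0.06. For Mtf1 the brightest probe set was called in no tissue, with contrasts between -0.27 and 0.49. Its next one was lower in duodenum and liver (both -0.52) and higher in spleen (0.64; adjusted p = 0.0421, 0.0354 and 0.00981 by limma).

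Of the 15 tested probe sets of copper genes, 5 were called higher in duodenum (beside 13.8% of all tested probe sets), 6 in liver (16.7%) and 0 in brain, where 8 were lower (22.2%). Slc31a1 stood at 2.64 and 3.44, 3.25 and 3.57, 1.32 and 1.27, 0.97 and 0.36, and 0.18 and 0.97. Liver and duodenum overlapped above the other tissues, with contrasts of 2.02 ± 0.33 and 1.56 ± 0.33, and the dimmer probe set had 1.70 and 2.05. Ccs was higher in liver by 1.94 ± 0.22 (adjusted p = 4.96e-06 by limma) and Commd1 by 0.93. The brightest probe set of Atp7b was called in liver neither way, at 0.38, while another was higher in liver (0.74) and duodenum (0.76). Atp7a was higher in duodenum (1.01) and spleen (0.96) and lower in liver (-0.93) and brain (-1.13).

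Of the members called higher in spleen, Atox1 had the largest contrast, where 35.4% of all tested probe sets were called higher. On the probe set with the largest contrast it stood at 2.72 and 3.21, 3.05 and 3.05, 4.76 and 4.67, 2.85 and 2.13, and 2.23 and 3.12. Spleen lay above every other array, by 1.92 ± 0.28, a fold of 3.79 (adjusted p = 4.09e-05 by limma), and the brightest probe set had 1.82. On another, dimmer tested probe set of Atox1 spleen and bone marrow overlapped, with deposited control values of 5.69 and 6.02 against 5.77 and 5.88. In bone marrow the members called higher were Slc31a2 and 1 probe set of Atp7b. Slc31a2 stood at 1.54 and 1.37, 1.60 and 1.47, 2.02 and 2.06, 3.08 and 2.45, and 1.30 and 1.31. Both bone marrow arrays lay above all others, by 1.18 ± 0.21. With the IRP2 arrays in place of the controls the contrast was 0.57, and its other tested probe set had 0.24 and was not called. The Atp7b probe set passed the filter through bone marrow alone, and its 0.66 ± 0.17, from levels of 0.06 and 0.27 against at most -0.27 elsewhere, is a description; without bone marrow control replicate 2 it was not called (0.56, adjusted p = 0.0717 by limma).

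**Figure D4:**
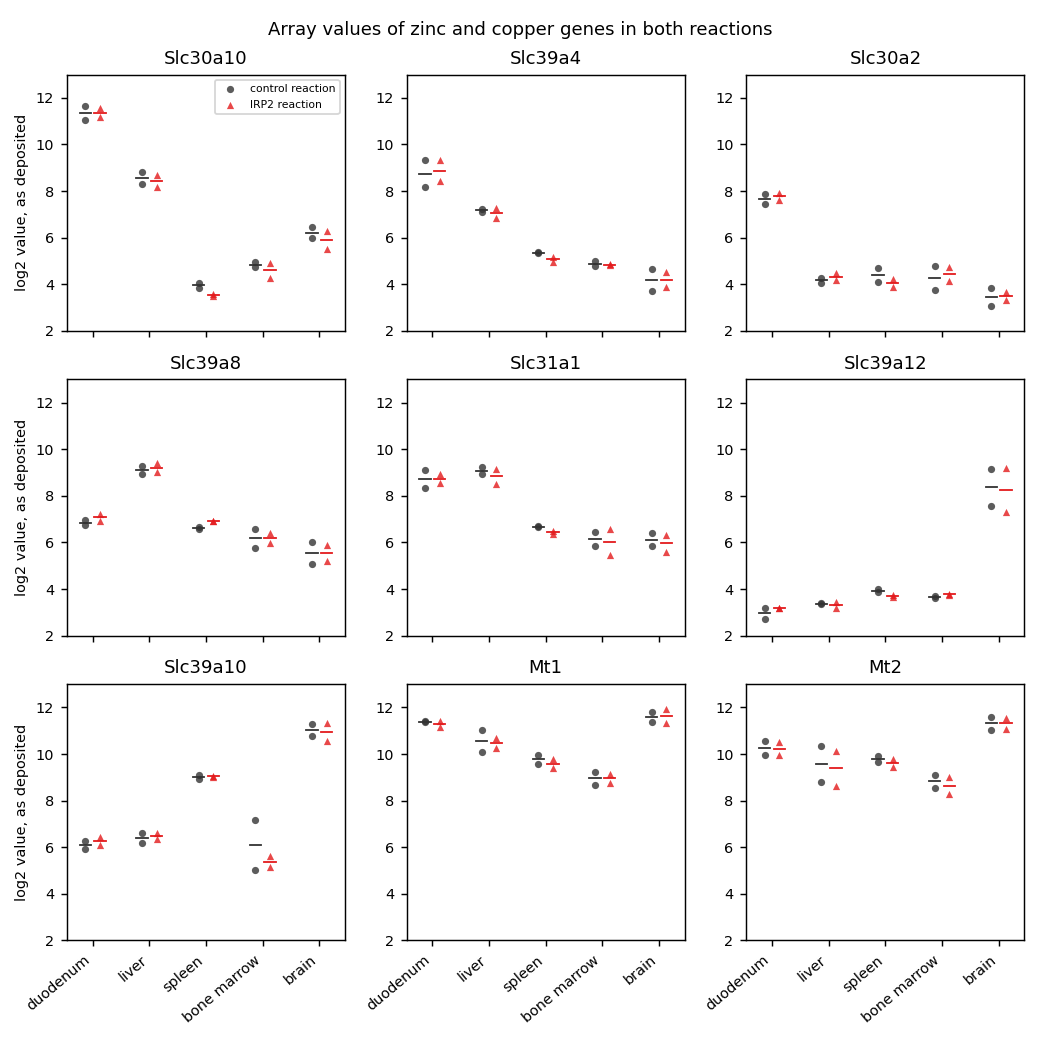
Deposited log2 values on every array for 9 zinc and copper genes in control reactions (dark circles) and IRP2 reactions (red triangles), with the mean of each pair of replicates as a bar. Slc30a10 falls from 11.06 and 11.64 in the duodenum controls to 3.85 and 4.05 in those of spleen. The IRP2 and control bars of a tissue mostly lie close together. They lie further apart for Slc39a10 in bone marrow (controls 7.19 and 5.03, IRP2 arrays 5.14 and 5.61).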

How the data were processed

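Per the series' design text, the authors computed probe set intensities with RMA in Bioconductor or with MAS5 in GCOS followed by quantile normalization; the submitters' processing notes name the same tools without versions. The deposited values are on a log2 scale, between 1.77 and 15.0, and the sources used here do not give which route made which array. Array medians fell in 2 separate ranges, so reactions were compared within tissues and levels between tissues after subtraction of the array median.

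The 64 control probe sets of the array were left out, and a probe set was tested where it reached its array's median on at least 2 of 20 arrays (30153, 66.9%). In R 4.3.3, limma 3.58.1 estimated 1 mean for each of the 10 groups from the log2 values. Benjamini-Hochberg adjustment ran over all tested probe sets, with calls at an adjusted p under 0.05. With 10 residual degrees of freedom, the number of arrays limits the precision. Same-numbered arrays deviated together from their group means (correlations of 0.676, 0.565, 0.385, 0.251 and 0.923 for duodenum, liver, spleen, bone marrow and brain), so a second fit took replicate number within tissue as a block. The fits were tested on simulated data. The alternatives were other normalizations, filters and fits, and leaving out each array in turn.

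The members and all lists were chosen with earlier results of these data known. Symbols came from the platform annotation, and the brightest probe set of a gene is the one with the highest mean over 20 arrays. Given array by array are members called in any IRP2 contrast, the 5 highest and 5 lowest mean ratios, and members whose arrays separated in 4 or 5 tissues. For levels they are the 3 largest called contrasts of each tissue and the metallothioneins. Other members named singly were chosen after their values were seen. Marker lists served to check tissue labels, and some of their genes are not reported here. Promoters came from RefSeq (GRCm38.p6).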

Additional observations from a re-analysis of the deposited data

How the results depend on the processing

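Over all alternatives, the count of members called was 0 on the mean over tissues and in each tissue, with and without the replicate block, except in bone marrow, where leaving out 1 array gave 0 to 1. The median ratio of the 34 genes stayed between -0.10 and -0.02, and 6 to 9 probe sets of the iron genes were called. The small positive mean ratios changed sign with single arrays left out: Slc30a2 ranged from -0.065 to 0.141, Atp7b from -0.064 to 0.142, Slc39a5 from -0.032 to 0.146 and Slc39a3 from -0.064 to 0.187, none of them called.

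Counts of control levels moved more. The matching shares of all tested probe sets are not given, so these moves may not be particular to the members. With 1 array left out, the counts higher ran from 12 to 24 in duodenum, 7 to 20 in liver, 7 to 13 in spleen, 1 to 4 in bone marrow and 6 to 10 in brain, and the counts lower from 3 to 7 in duodenum, 3 to 11 in liver and 9 to 31 in bone marrow. Where a group is left with 1 array, that array is assumed to vary like the other groups. In spleen 6 were higher and 17 lower after quantile normalization, 20 were lower without centring, 17 lower with IRP2 arrays in place of controls, and 6 lower among arrays of like median, an alternative added after seeing the data. Among these arrays 8 were higher in liver and 6 in bone marrow. In bone marrow 1 was higher under the stricter filter (10 arrays at the median) and 4 with the IRP2 arrays. The causes were not tested. The 2 arrays per group and the spread of bone marrow pair 1 limit what can be seen in a single tissue.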
